A study of Mus musculus with 9 samples.

Results

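The genes of the cytosolic ribosomal proteins were described in RNA sequencing of mouse brain after cerebral venous sinus thrombosis (CVST). Members were taken by symbol from the table of counts, as the Rpl and Rps symbols followed by a number, Rplp0 to Rplp2, and Rpsa, without the Rps6 kinases and without symbols marked as pseudogenes. Genes needed at least 10 counts in at least 3 of the 9 libraries, which left 83 of the 20731 symbols in the table. Of these, 43 encode proteins of the large (60S) subunit, 3 encode the P-stalk and 30 encode proteins of the small (40S) subunit. A further 5 are paralogues of such proteins (Rpl7l1, Rpl22l1, Rpl36al, Rps27l and Rps27rt). Rps19bp1 encodes a nucleolar protein that binds a ribosomal protein and is not part of the ribosome, and Rps23rg1 has a symbol of the same form but is not a core ribosomal protein gene.

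The 9 libraries came from male C57BL/6J mice of 8 to 10 weeks, and 3 mice each formed the groups CVST, CVST+Ligation and 4-PBA, with tissue taken on day 2. Every mouse had thrombosis of the superior sagittal sinus, produced by ferric chloride on the vessel wall. Mice of the CVST+Ligation group and of the 4-PBA group had their deep cervical lymph nodes ligated as well. The 4-PBA mice also received 100 mg/kg of 4-phenylbutyric acid, a chemical chaperone used as an inhibitor of endoplasmic reticulum stress, by the intraperitoneal route. The methods place this injection 30 min before modelling, whereas the data set's own description places it after ligation. Solvent is described for control mice only, without saying whether the CVST or CVST+Ligation mice received it, and no sham-operated mice were among these libraries. The labels name the tissue as brain and the description names cortex.

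A ribosome is built from ribosomal RNA and a fixed set of proteins, most of them present as a single copy in each subunit, and their synthesis is coordinated. The messages belong to the TOP class, which starts with a C followed by a run of pyrimidines at the cap. Translation of this class is switched on by the mTOR pathway and held back by the cap-binding protein Larp1. In neurons these messages are abundant and some are carried into axons and dendrites.

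RefSeq (GRCm38.p6) gave an annotated start for 63 of the 83 members. The 30 bases around the start are given for members that the results below turn on, to show pyrimidine runs near it. Each window runs from 15 bases before the annotated transcript start into the first 15 bases of the first exon. Capitals mark the longest run in the window, or the first of equal length, that is a C followed by at least 4 pyrimidines. Runs anywhere in the window count, such as that of Rps7, which lies before the start. A marked run is therefore not by itself a TOP sequence, which would begin at the cap. The first lines are members that varied most like the rest, and the last lines are Rpl12 and members that varied least like the rest.
Rps12 (chr10:23787195-23787224, minus strand): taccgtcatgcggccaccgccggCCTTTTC
Rps7 (chr12:28635939-28635968, minus strand): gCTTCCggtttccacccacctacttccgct
Rpl11 (chr4:136053379-136053408, minus strand): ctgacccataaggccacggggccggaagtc
Rps28 (chr17:33824548-33824577, minus strand): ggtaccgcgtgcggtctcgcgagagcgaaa
Rpl36al (chr12:69184053-69184082, minus strand): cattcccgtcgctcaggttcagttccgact
Rpl12 (chr2:32961697-32961726, plus strand): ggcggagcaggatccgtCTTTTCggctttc
Rpl13a (chr7:45128731-45128760, minus strand): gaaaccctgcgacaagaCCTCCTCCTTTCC
Rpl7l1 (chr17:46782642-46782671, minus strand): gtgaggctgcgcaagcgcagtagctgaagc
Rps23rg1 (chr8:3567983-3568012, plus strand): gctttgcagagagtCTTTCTCTCaccccag
Of the 63 members with a start, 37 (58.7%) held such a run, against 36.4% of the first listed starts of all 27025 genes in the table. Of the 5 most alike members 2 held a run, and so did the 2 least alike. The median correlation with the other members, described below, was 0.951 in the 37 members with a run and 0.946 in the 26 without.

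In the 300 bases around the start (250 before and 50 after), GGAAGT on either strand was found in 32 of the 63 members (50.8%) and in 24.1% of all promoters. AAGATGG on either strand was found in 9 members (14.3%, all promoters 6.48%), and CTCTTTC on the gene's strand, which can overlap the pyrimidine run, in 12 (19.0%, all promoters 3.91%). TATAAA on either strand was found in 6 members (9.52%), fewer than in all promoters (14.2%). These matches describe the letters in the window, and binding of a factor was not measured.

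Levels between genes were compared per length, as FPKM, which scales the fragments of a gene to its length and to the total of the library. By this measure the highest member was Rpl41, the shortest ribosomal protein, with a mean of 1795 FPKM and a range of 1473 to 2163 over the 9 libraries. Rps24 (1518), Rps15 (1307), Rps14 (1187), Rpl23a (1156) and Rps25 (979.7), proteins of both subunits, followed in mean FPKM. The ranges of Rpl41 and Rps24 overlapped (Rps24 1197 to 1883), and so did those of each further neighbour in this order.

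Most members lay close together at a high level. The mean level exceeded 300 FPKM in 63 members, 64 were among the 500 highest genes of the whole table and 10 among the 100 highest, and the 90th percentile of the members was 4.48 times the 10th. The order was nearly the same in every mouse, with rank correlations of 0.971 to 0.992 over 36 pairs of libraries. The P-stalk genes, whose products recruit elongation factors to the ribosome, spread from Rplp2 at 223 FPKM to Rplp1 at 959. Rpsa, the 40S protein that also serves as a laminin receptor, had a mean of 829 FPKM.

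The lowest levels belonged to the genes outside the core list and to Rpl13a. Rps23rg1 had a mean of 1.67 FPKM, Rpl13a 3.77, Rps19bp1 38.4 and Rps27rt 39.8. The paralogues Rps27l and Rpl7l1 came next with 71.1 and 89.5 FPKM, whereas Rpl22l1 and Rpl36al lay within the range of the core members.

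**Figure D1:**
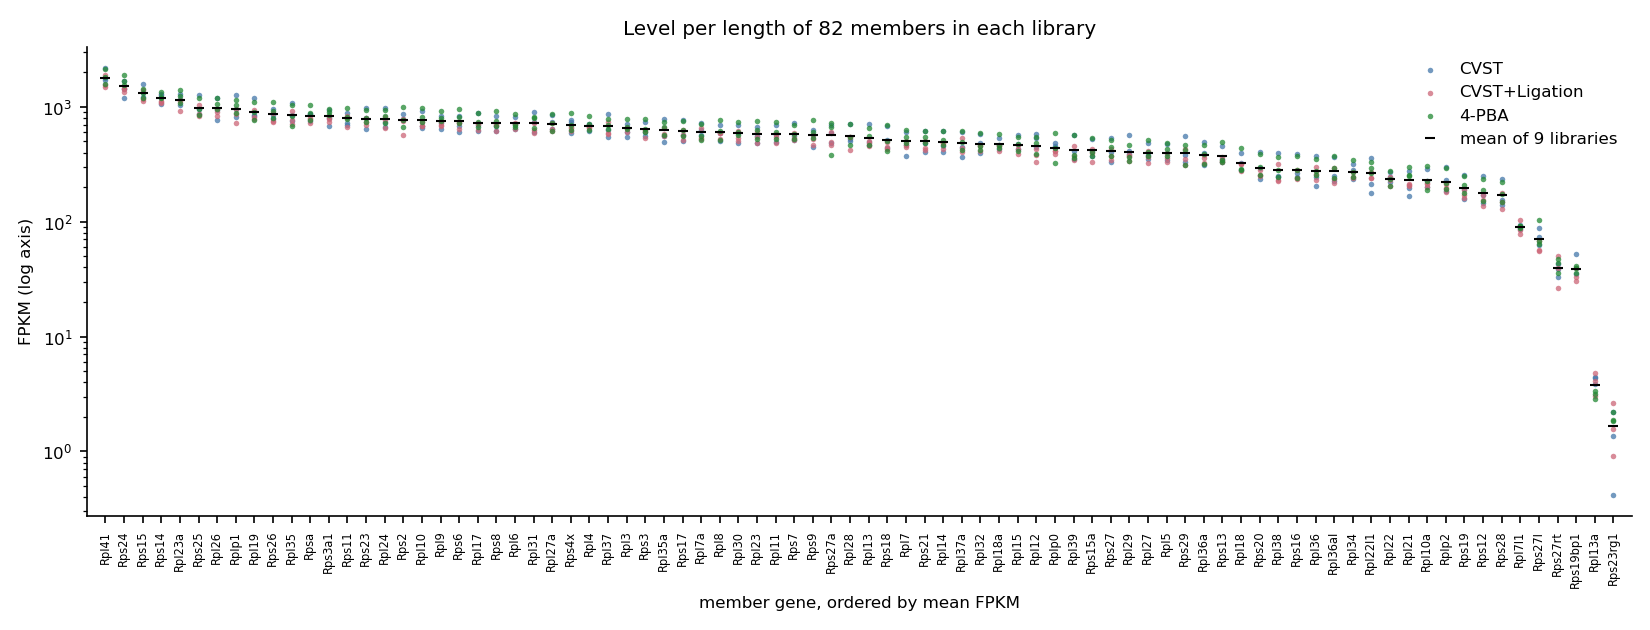
FPKM of each of 82 members (log axis) in each of the 9 libraries, coloured by group, with the mean as a black dash and genes ordered by mean. The members run as a shallow slope from Rpl41 at 1795 FPKM, and 6 genes from Rpl7l1 (89.5) to Rps23rg1 (1.67) drop away at the right.

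Some ribosomal protein genes carried far fewer counts than the other core genes. Rpl13a, a 60S protein, had 34 to 69 counts per library, and Rps10, a 40S protein, had 0 or 1. In the GENCODE M21 annotation the exons of both overlap a protein-coding model on the same strand: 35.38% of the exonic bases of Rpl13a (with Gm45713) and 20.55% of those of Rps10 (with a Rps10 and Nudt3 readthrough). Rpl36al has such an overlap over 24.54% of its exonic bases (with Gm49383) and had a level in the range of the core members. The part of these overlaps in the low counts was not tested. Rpl10l, Rpl39l and Rpl3l, paralogues known from testis or muscle, had at most 17 counts and were left out with Rps10. The pseudogene Rpl9-ps6, left out by its symbol, had 717 to 1324 counts, and how reads were split between Rpl9 and this copy is not stated.

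The total number of counted reads was 18100739 to 25091498 per library. Marker genes of brain regions and cell types differed between libraries, several of them by group. The 8 cortical excitatory neuron genes summed to 1944 to 2277 CPM, counts scaled to the total of the library, in CVST, 587 to 1790 in CVST+Ligation and 676 to 1042 in 4-PBA, and the 8 thalamic neuron genes to 71.5 to 119, 261 to 735 and 476 to 834. The 8 striatal neuron genes gave 1001 to 1725, 195 to 501 and 266 to 1289, and the 8 midbrain dopamine neuron genes 49.0 to 126, 232 to 269 and 252 to 325. The 8 choroid plexus genes gave 794 to 939, 22.03 to 842 and 472 to 3215, and the 8 cerebellar neuron genes 124 to 194, 192 to 1085 and 158 to 259.8. The 8 oligodendrocyte genes gave 2570 to 3327, 2671 to 6160 and 4937 to 7675, and the microglia genes 840 to 967, 657 to 738 and 678 to 881. None of these markers was at 0 in every library. The cortical, striatal, thalamic, midbrain and microglia sums of CVST and CVST+Ligation did not overlap, whereas the choroid plexus, cerebellar and oligodendrocyte sums did. Single libraries stood apart within their groups, CVST+Ligation replicate 2 with the cerebellar value of 1085, CVST+Ligation replicate 3 with the choroid plexus value of 842 (102 and 22.03 in the other 2 mice) and 4-PBA replicate 1 with the choroid plexus value of 3215 (685 and 472 in the other 2). The part of these markers in the values below was not tested, and in bulk tissue fewer cells of a type and less RNA per cell cannot be told apart.

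The 83 members took overlapping shares of the counted reads in the 3 groups. The share was 2.14%, 2.42% and 2.92% in the CVST mice (mean 2.50% ± 0.392, SD, n = 3), 2.16%, 2.27% and 2.46% in the CVST+Ligation mice (mean 2.30% ± 0.153, n = 3) and 2.26%, 2.55% and 3.05% in the 4-PBA mice (mean 2.62% ± 0.396, n = 3). The groups overlapped. In each group the library labelled replicate 3 was the highest.

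**Figure D2:**
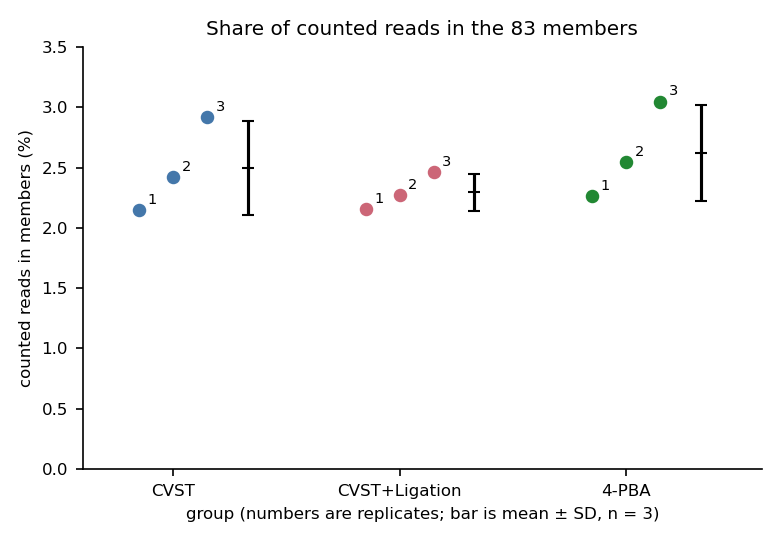
Percent of counted reads that fell on the 83 members, by group, 1 point per library with its replicate number, and the mean ± SD (n = 3) as a bar. The points run from 2.14% to 3.05%, the groups overlap, and replicate 3 is the top point of each group.

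The rise in these 3 libraries ran through nearly the whole set. Within the CVST group, 82 of the 83 members were highest in replicate 3, where 40.3% of all genes tested were. The same held for 77 members in CVST+Ligation replicate 3 (28.2% of all genes) and 79 in 4-PBA replicate 3 (33.6%). The mean of the members' log2 CPM, centred on each gene's mean, was -0.16, -0.04 and 0.37 in CVST, -0.21, -0.15 and 0.05 in CVST+Ligation, and -0.16, 0.04 and 0.25 in 4-PBA.

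Both subunits moved together in this pattern. In CVST replicate 3 the centred mean was 0.37 for the 60S list, 0.37 for the 40S list, 0.41 for the P-stalk and 0.36 for the paralogues. In 4-PBA replicate 3 the same lists stood at 0.24, 0.28, 0.31 and 0.27. The mitochondrial ribosomal proteins, which are encoded in the nucleus and serve a separate ribosome, stood at 0.32 in CVST replicate 3 and at 0.06 in 4-PBA replicate 3.

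Other properties of the libraries were set beside it. The mean gene length of the counted reads was 2227, 2179 and 1960 bases in CVST, 2278, 2216 and 2142 in CVST+Ligation and 2212, 2113 and 2109 in 4-PBA, the lowest of each group in replicate 3. Mitochondrially encoded genes took 6.28%, 6.76% and 9.19% of the counts in CVST, 7.04%, 5.72% and 7.72% in CVST+Ligation and 6.95%, 8.84% and 7.27% in 4-PBA, so that replicate 3 was the highest in the first 2 groups and not in 4-PBA. Relative to the mean of the other 2 mice of its group, CVST replicate 3 was higher by a median log2 difference of 0.47 in the members, 0.28 in 1459 other genes shorter than 600 bases, and 0.02 in all genes. For 4-PBA replicate 3 the corresponding values were 0.30, 0.05 and -0.02, and for CVST+Ligation replicate 3 they were 0.24, 0.12 and -0.01. Across the members, the difference fell with gene length in CVST (Spearman's rho -0.50) and CVST+Ligation (-0.58) and hardly in 4-PBA (-0.11), as a description over 83 genes of the same libraries. Over all genes tested rho was -0.28, -0.15 and -0.12. The part of RNA quality in the pattern was not tested, and the comparisons below give the members' medians also with an offset for gene length.

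**Figure D3:**
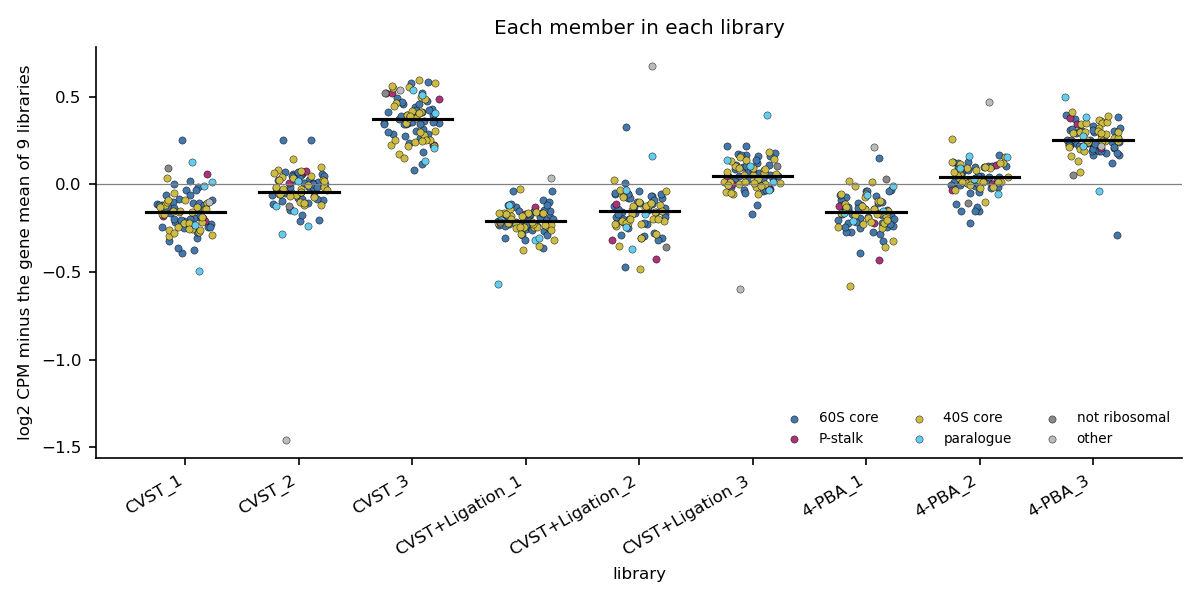
Log2 CPM of each member minus its mean over the 9 libraries, 1 point per member coloured by class, with the mean of the 83 members as a bar. The whole cloud shifts from library to library, from -0.21 in CVST+Ligation replicate 1 to 0.37 in CVST replicate 3, and the few points far from the cloud are Rps23rg1 and, less so, Rpl13a, Rps27a and paralogues.

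The members varied together across mice. The Pearson correlation of each member's log2 CPM with the mean of the other members over the 9 libraries had a median of 0.945 and exceeded 0.9 in 59 of 83 members, whereas 578 genes outside the set with at least the members' median count had a median of 0.103. These points share libraries and their scaling, and the values are a description. Most like the rest were Rps12 (0.993), Rpl36al (0.991), Rpl11 (0.989), Rps28 (0.989) and Rps7 (0.987), of which Rpl11 and Rps7 also act as regulators of Mdm2 and p53.

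Rps12 shows the pattern. Its values were 86.4, 99.2 and 150.4 CPM in CVST, 79.0, 87.1 and 101 in CVST+Ligation, and 85.0, 107 and 129 in 4-PBA. Replicate 3 was the highest of each group and the 3 groups overlapped.

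The least alike were Rpl13a (-0.03), Rps23rg1 (0.13) and Rpl7l1 (0.38), the first 2 with few counts. Rpl7l1, a nucleolar paralogue of Rpl7 that takes part in subunit assembly, was flat at 65.5, 66.8 and 72.2 CPM in CVST, 57.2, 73.6 and 64.3 in CVST+Ligation and 63.2, 67.3 and 64.2 in 4-PBA. Its lowest and highest libraries were both in the CVST+Ligation group.

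Within groups, the largest spread of log2 CPM belonged to Rps23rg1 (SD 0.70, with 4 to 22 counts), Rps27a (0.35) and Rpl22l1 (0.33), whereas the median member had 0.23 and the median gene 0.30. Rps27a, the ubiquitin fusion of the 40S subunit, had 174, 310.4 and 321 CPM in 4-PBA, the first of them its lowest value of all 9 libraries, 218 to 287 in CVST+Ligation and 233 to 345 in CVST. Rpl22l1, a paralogue that can stand in for Rpl22, had 79.8, 92.5 and 163 CPM in CVST, 104, 100.03 and 121 in CVST+Ligation and 112, 125 and 136 in 4-PBA. Its CVST values enclosed those of both other groups.

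Among these 578 genes outside the set, Tpt1 (0.971), itself a TOP message, Naca (0.959), which binds nascent chains at the ribosome, Pdia3 (0.954), Ppia (0.920) and Clu (0.898) were the most alike. Hectd4 (-0.975), Gtf2i (-0.941), Kidins220 (-0.938), Kif1a (-0.932) and Huwe1 (-0.913) ran the opposite way. Tpt1 had 641, 663 and 961 CPM in CVST, 592, 677 and 753 in CVST+Ligation and 678, 771 and 890 in 4-PBA, with replicate 3 again on top of each group.

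To ask whether ligation of the cervical nodes changed the set, CVST+Ligation was compared with CVST by edgeR's quasi-likelihood test on all 14746 genes that passed the filter on low counts, all 83 members among them. No member passed an adjusted p of 0.05 (background 0.0203% of all genes). One member, Rpl12, had an unadjusted p below 0.05, or 1 of 83 against 9.64% of all genes tested (4.18% lower and 5.47% higher in CVST+Ligation). Even so, 81 of 83 members had a log2 fold change below 0 (49.7% of all genes) and 2 above (50.3%), with a median of -0.18 where the median of all genes was 0.00. With an offset for gene length the median of the members was -0.09, and 73 of 83 were below 0. The members varied together across mice and are not independent replicates. Without CVST replicate 3 the median was -0.03 and 53 of 83 were below 0, whereas without CVST replicate 1 it was -0.29, and Rpl29 and Rps14 joined Rpl12 at the unadjusted limit.

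Rpl12, a 60S protein at the base of the P-stalk, had the lowest log2 fold change of all members. It had 280.0, 329.7 and 373 CPM in CVST (mean 328 ± 46.7, SD, n = 3) and 232, 199 and 269.7 in CVST+Ligation (mean 234 ± 35.2, n = 3), so that the groups did not overlap. The log2 fold change was -0.49 (SE 0.17, 95% interval -0.87 to -0.10), and the Benjamini-Hochberg adjusted p of edgeR's quasi-likelihood test was 0.417. Over 20 settings of the analysis its unadjusted p ranged from 0.00663 to 0.0698 and its adjusted p from 0.223 to 0.639. The unadjusted limit of 0.05 was missed without CVST replicate 3 (log2 fold change -0.40), without both CVST replicate 3 and 4-PBA replicate 3 (-0.38) and without CVST+Ligation replicate 2 (-0.39). The last of these libraries had 1085 CPM for the cerebellar list and 587 for the cortical list, and the part of these markers in the value of Rpl12 was not tested. Without it the median of the 83 members was -0.16.

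The groups also did not overlap for Rpl29 and Rplp0, which made 3 of 83 members lower in every CVST+Ligation mouse (background 7.21%), and none was higher in every such mouse (background 6.61%). Rpl29, a small 60S protein, had 192, 198 and 287 CPM in CVST and 180.0, 158 and 187 in CVST+Ligation (log2 fold change -0.37, SE 0.18). Rplp0, the scaffold of the P-stalk, had 429, 431 and 481 CPM against 365, 379.8 and 404 (log2 fold change -0.22, SE 0.18). For both, the gap between the nearest mice was smaller than the SD within CVST.

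Next by p among the named genes were Rps19bp1 (log2 fold change -0.33, SE 0.20) and Rps27l (-0.36, SE 0.23), a paralogue known as a p53 target. Only Rpl3, at the peptidyl transferase centre, and Rps23rg1 had values above 0, with log2 fold changes of 0.00 (SE 0.13) and 0.30 (SE 0.63). Rpl3 had 811, 880.3 and 1071 CPM against 878, 916 and 971, which lay within the CVST range.

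By role, the median log2 fold change was -0.17 for the 43 genes of the 60S list (42 below 0), -0.18 for the 30 of the 40S list (30 below 0), -0.29 for the 3 P-stalk genes and -0.07 for the 5 paralogues. The standard errors of single members had a median of 0.18. The 95% interval lay within 1 log2 unit of 0 in 82 of 83 members, all but Rps23rg1, and within 0.5 in 21.

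The second comparison, 4-PBA against CVST+Ligation, asks whether the compound changed the set in ligated mice, and uses the same ligated mice as the first. No member passed an adjusted p of 0.05 (0 of 14746 genes did, 0%) and none had an unadjusted p below 0.05 (3.23% of all genes tested, 1.81% higher and 1.42% lower in 4-PBA). In 81 of 83 members the log2 fold change was above 0 (47% of all genes, with 53% below), with a median of 0.15 beside -0.02 for all genes. With the offset for gene length the median was 0.10, and 76 of 83 were above 0. Without 4-PBA replicate 3 the median was 0.04, and 57 of 83 were above 0. Without 4-PBA replicate 1 the median was 0.27, with 2 members, Rpl12 among them, at the unadjusted limit, and without CVST+Ligation replicate 3 it was 0.25. These 2 libraries had the highest choroid plexus sums of their groups (3215 and 842 CPM), and the part of these markers in the medians was not tested.

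Rpl21, a 60S protein, had the smallest p. It had 100.4, 94.4 and 105 CPM in CVST+Ligation and 121, 118 and 137 in 4-PBA, without overlap (log2 fold change 0.33, SE 0.18, 95% interval -0.09 to 0.74). Its CVST values of 82.9, 94.1 and 139 CPM enclosed both groups. Rps24, a 40S protein whose gene is mutated in some Diamond-Blackfan anaemia, had 541, 556 and 602 CPM in CVST+Ligation and 613, 675 and 724 in 4-PBA (log2 fold change 0.24, SE 0.15).

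Rps14, a protein of the 40S platform, was the remaining gene of 3 in 83 that were higher in every 4-PBA mouse (background 3.51%, and 4.22% for lower, where no member stood), with 486, 484 and 519.7 CPM against 531, 545 and 587. The log2 fold changes of Rpl12 and Rps9 were 0.28 (SE 0.17) and 0.26 (SE 0.17). Rpl12 had 233, 298 and 319 CPM in 4-PBA, which overlapped the ligated mice.

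Below 0 were Rpl13a, at 1.98, 3.09 and 2.77 CPM in CVST+Ligation and 1.84, 2.19 and 1.98 in 4-PBA (log2 fold change -0.38, SE 0.29), and Rpl7l1, at 0.00 (SE 0.12). By role, the medians were 0.13 for the 60S list, 0.18 for the 40S list, 0.20 for the P-stalk and 0.20 for the paralogues. The 95% interval lay within 1 log2 unit of 0 in 81 of 83 members and within 0.5 in 21.

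**Figure D4:**
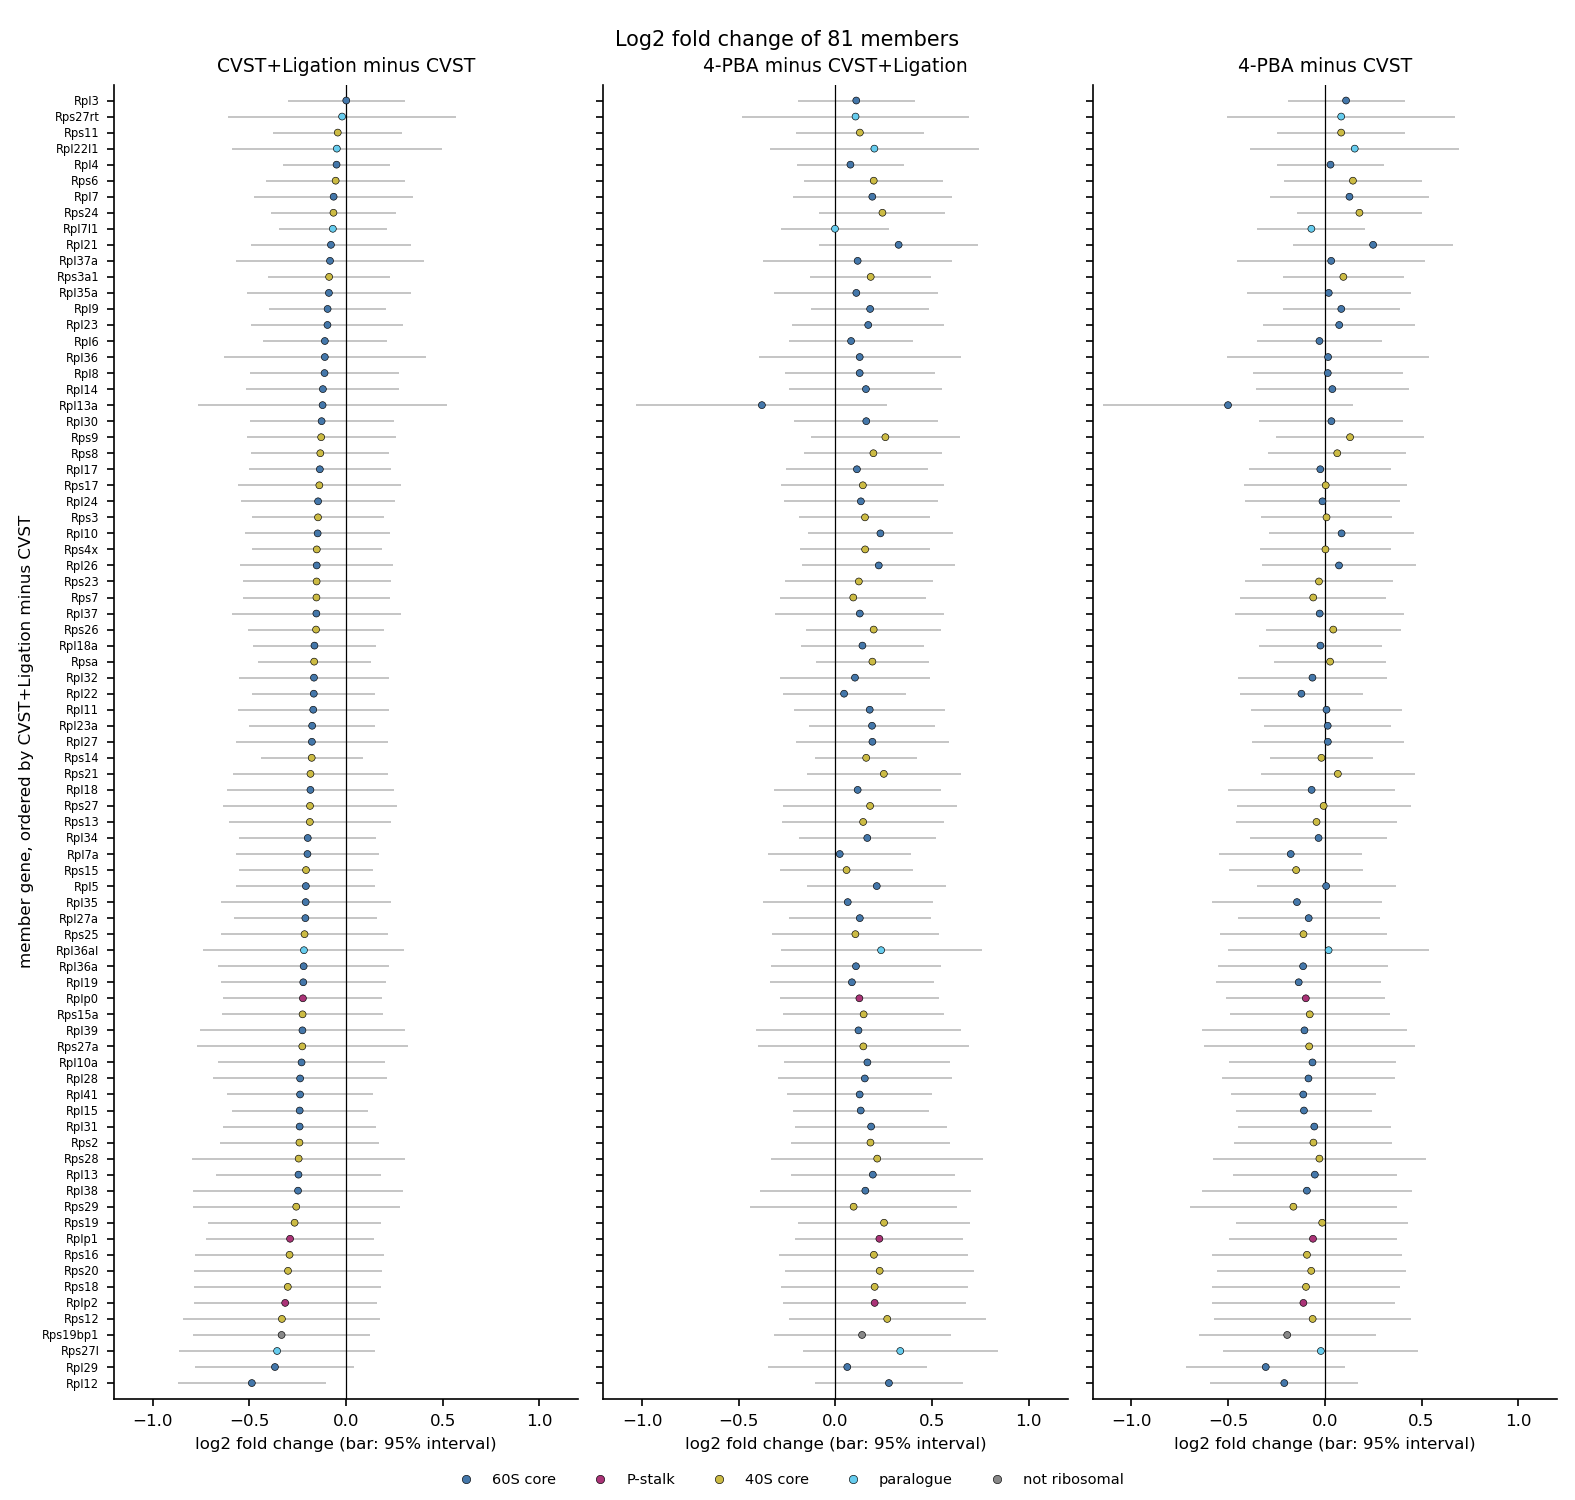
Log2 fold change (horizontal axis) of 81 members with its 95% interval in the 3 comparisons, genes ordered by CVST+Ligation minus CVST and coloured by class. Nearly all points lie below 0 for CVST+Ligation minus CVST and above 0 for 4-PBA minus CVST+Ligation, and every interval but that of Rpl12 for CVST+Ligation minus CVST crosses 0.

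The third pair, 4-PBA against CVST, shares its mice with both others. The members lay on both sides of 0, with 35 above (48.9% of all genes) and 48 below (51.1%) and a median of -0.02 (all genes -0.01). No member passed an unadjusted p of 0.05 (15.4% of all genes tested, 8.07% higher and 7.33% lower in 4-PBA) or an adjusted one (0.122%). The interval lay within 0.5 log2 units of 0 in 49 members and within 1 in 81. The median changed side with the library left out, and was 0.14 without CVST replicate 3, 0.09 without 4-PBA replicate 1, -0.13 without 4-PBA replicate 3, -0.12 without CVST replicate 1 and -0.06 without CVST replicate 2. Without CVST replicate 3 the genes Rpl21, Rpl22l1 and Rps24 were higher in 4-PBA at an unadjusted p below 0.05, and the smallest adjusted p of a member was 0.114 by edgeR's quasi-likelihood test.

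Rpl13a was the only member whose groups did not overlap (lower in 4-PBA, background 11.5%, and 12.3% for higher), with 2.93, 2.93 and 2.66 CPM in CVST against 1.84, 2.19 and 1.98 (log2 fold change -0.50, SE 0.29, and 34 to 69 counts behind each value). Rpl29 (-0.31, SE 0.18), Rpl12 (-0.21, SE 0.17), Rpl7a (-0.18, SE 0.16) and Rps15 (-0.15, SE 0.15) had the next smallest p below 0. Above 0, Rpl21 (0.25, SE 0.18), Rps24 (0.18, SE 0.15), Rps6 (0.14, SE 0.16), Rpl3 (0.11, SE 0.13) and Rps23rg1 (0.50, SE 0.62) had the smallest p. Rps6, the 40S protein phosphorylated downstream of mTOR, had 460.0, 513 and 658 CPM in CVST, 476, 538 and 558 in CVST+Ligation and 524, 600.4 and 679 in 4-PBA, with overlap between every pair of groups.

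Over the 3 groups together, the CVST+Ligation mean of log2 CPM was the lowest in 79 of 83 members, CVST in 3 and 4-PBA in 1. The CVST mean was the highest in 46 and the 4-PBA mean in 37. This order restates the comparisons above, which share the CVST+Ligation mice, and its share over all genes was not computed. With CVST replicate 3 and 4-PBA replicate 3 left out together, an alternative chosen after seeing the data, 44 of 83 members were below 0 in CVST+Ligation against CVST.

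**Figure D5:**
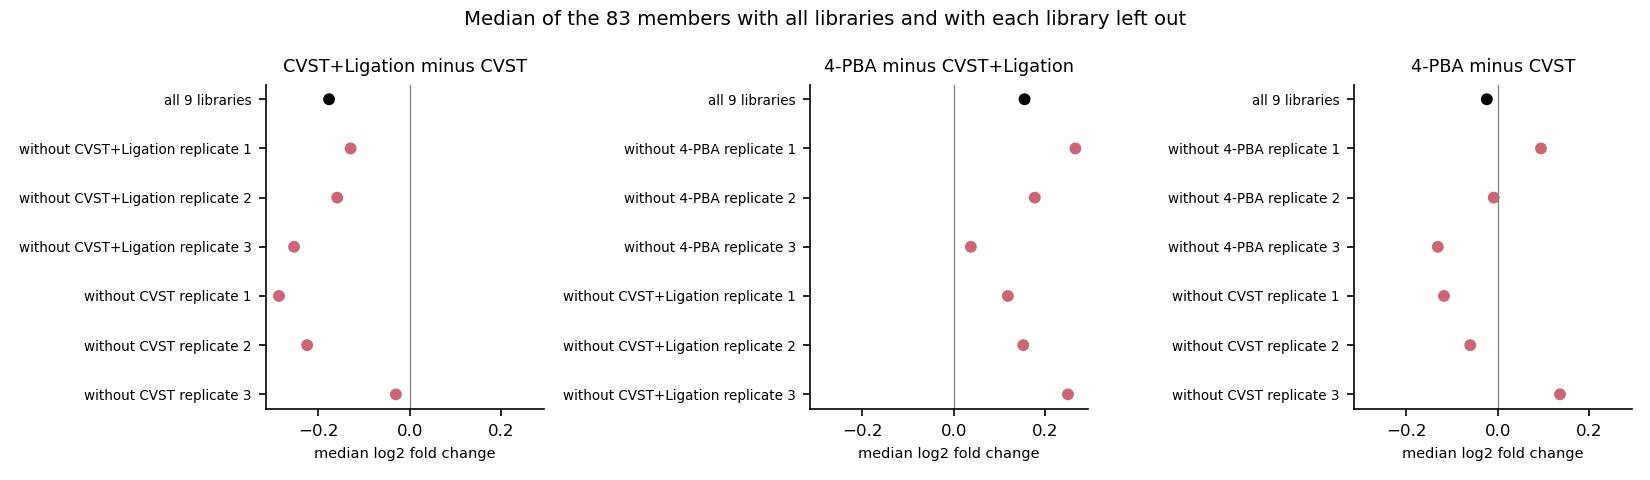
Median log2 fold change of the 83 members in each comparison with all 9 libraries (black) and with each library of the compared groups left out in turn (red). The median runs from -0.29 to -0.03 for CVST+Ligation minus CVST, from 0.04 to 0.27 for 4-PBA minus CVST+Ligation, and across 0 from -0.13 to 0.14 for 4-PBA minus CVST.

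To see whether single members moved against the rest, the counts were also scaled to the summed counts of the members, which removes the common shift. The numbers above and below 0 then were 35 and 48 for CVST+Ligation against CVST, 42 and 41 for 4-PBA against CVST+Ligation, and 36 and 47 for 4-PBA against CVST. Rpl12 alone had an unadjusted p below 0.05, in the first comparison (log2 fold change -0.33, adjusted p = 0.614 by edgeR's quasi-likelihood test), and no member passed an adjusted p of 0.05 in any. Under this scaling 7.7%, 2.73% and 11.5% of all 14746 genes had an unadjusted p below 0.05 in the 3 comparisons.

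Rps2, a 40S protein at the entry of the message channel, had a single low library. It had 679, 496 and 727 CPM in CVST+Ligation, where the 496 of replicate 2 was its lowest value of all 9 libraries, 709, 712 and 825 in CVST and 593, 697 and 865 in 4-PBA. Replicate 2 is also the library with 1085 CPM of cerebellar markers, against 124 to 259.8 in the other 8, and the part of these markers in its low value was not tested. The log2 fold change for ligation was -0.24 (SE 0.18).

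Genes that work with the ribosome were taken from lists. Rack1, a 40S scaffold, and Fau, a ubiquitin-like fusion that yields a 40S protein, fall outside the symbol rule. Rack1 had 295, 311 and 366 CPM in CVST, 259, 273 and 295 in CVST+Ligation and 234, 282 and 374 in 4-PBA. Fau had 103, 111 and 178, then 111, 118 and 122, then 104, 123.5 and 149 CPM. Both had log2 fold changes below 0 for ligation (-0.23, SE 0.17, and -0.16, SE 0.21) and above 0 for 4-PBA against CVST+Ligation (0.10, SE 0.17, and 0.10, SE 0.21), and all their groups overlapped in at least 1 mouse.

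No gene of the other lists passed an adjusted p of 0.05 in any comparison. Of 45 initiation factors, 1 had an unadjusted p below 0.05 in CVST+Ligation against CVST (lower), and of 14 elongation and termination factors none had, with medians of -0.06 and -0.03. Of 20 other TOP messages none had, with a median of -0.09 and 15 below 0. Of 106 genes of ribosome biogenesis and RNA polymerase I, 2 were higher at that limit and none lower (median -0.06), and of 78 mitochondrial ribosomal proteins 1 was lower (median -0.10, with 68 below 0). Of all genes tested, 4.18% were lower at that limit and 5.47% higher.

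For 4-PBA against CVST+Ligation the medians of the same lists were -0.01, 0.02, 0.09, -0.04 and 0.03. At the unadjusted limit 1 initiation factor was higher and 1 lower, and no gene of the other 4 lists passed it (all genes 1.81% higher and 1.42% lower). For 4-PBA against CVST, 1 initiation factor, 2 elongation factors, 5 biogenesis genes and 2 mitochondrial ribosomal proteins were lower at that limit, and no gene of these lists was higher, where 7.33% of all genes tested were lower and 8.07% higher.

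Among regulators, both Larp1 and Mtor had their lowest value in CVST replicate 3, the library where the members were highest. The centred mean of the 32 regulators of mTOR and Larp1 was also lowest there, at -0.15. Larp1 had 145, 117 and 85.2 CPM in CVST, 167, 149 and 139 in CVST+Ligation and 147, 122.7 and 116 in 4-PBA. Its log2 fold change for ligation was 0.39 (SE 0.19, adjusted p = 0.549 by edgeR's quasi-likelihood test). Mtor had 194, 183 and 155 CPM in CVST, 185, 212 and 177 in CVST+Ligation and 188, 173 and 160.4 in 4-PBA, and its groups overlapped. Of 32 regulators of mTOR and Larp1 tested, 1 was higher and 1 lower at an unadjusted p below 0.05 for ligation, none passed it for 4-PBA against CVST+Ligation, and 1 was higher and 2 lower for 4-PBA against CVST.

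The elongation factors Eef1a1, which brings aminoacyl-tRNA to the ribosome and is a TOP message, and Eef2, which drives translocation, are abundant messages. Eef1a1 had 4996, 4868 and 5461 CPM in CVST, 4946, 4347 and 5286 in CVST+Ligation and 4994, 5261 and 5934 in 4-PBA, and replicate 3 was the highest of each group. Eef2 had 1872, 1833 and 1801 CPM, then 1730.4, 2407 and 1902, then 1909, 1949.8 and 2194, and replicate 3 was the highest only in 4-PBA.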

How the data were processed

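RNA from the brains of 9 mice (3 per group, on day 2) was sequenced. Samples were grouped by the names in their labels. The authors filtered reads with fastp, aligned them with HISAT2, and used StringTie and RSEM. The labels name mm10 and GRCm38. Versions and the counting program are not given in the sources used here, so the split of reads between near-identical copies is uncertain. The authors deposited raw counts per gene symbol and FPKM values (named TPM in the methods), which follow from the counts, the library totals and a single length per gene.

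Counts were scaled by TMM and filtered by filterByExpr, and 1 quasi-likelihood model with the 3 groups was fitted to all genes in edgeR 4.0.16 (R 4.3.3), with Benjamini-Hochberg adjustment. CPM values are on the TMM scale, and SE and 95% intervals come from the model. Log2 CPM used a prior count of 2. The fit was also run on simulated counts, drawn for each gene separately. These do not hold a shift shared by the members and do not bear on it. P-values measure the spread between mice as labelled. Depth of 18100739 to 25091498 counts sets a floor of 3 counts, or at most 0.166 CPM, for counting error only. Alternatives were other scalings and filters, DESeq2 1.42.0, limma 3.58.1 on log2(FPKM + 1) and log2(FPKM + 0.1), a gene length offset, a replicate block and each library left out. 

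Named genes are the 5 members with the smallest p in each direction per comparison, the members highest and lowest in FPKM, the P-stalk genes, Rpsa, paralogues, the members that vary most and least like the rest or vary most within groups, and listed non-members. Genes whose groups did not overlap, Rps2, Rps10, Rpl9-ps6 and the genes beside the sequences were added after their values were seen. The members and lists were chosen with earlier results of these data known. Some genes that this rule names are not reported here or labelled in the plots. Plots used matplotlib 3.10.9.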

Additional observations from a re-analysis of the deposited data

How the results depend on the processing

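With 3 mice a group, the median standard error per member was 0.18 log2 units. No setting gave a member with an adjusted p below 0.05 in any comparison. The medians over the settings that kept all libraries, other than the scaling to the members' sum, ran from -0.18 to -0.09 for CVST+Ligation against CVST, 0.10 to 0.19 for 4-PBA against CVST+Ligation, and -0.03 to 0.06 for 4-PBA against CVST. That scaling sets the members near 0 by construction and gave -0.02, 0.00 and -0.01. With each library left out they ran from -0.29 to -0.03, 0.04 to 0.27 and -0.13 to 0.14.

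Members at an unadjusted p below 0.05 numbered 1 for CVST+Ligation against CVST, and 0 to 3 with a library left out. For 4-PBA against CVST+Ligation there were 0, then 0 to 2 with a library left out and 1 in a fit of only the 2 groups compared. For 4-PBA against CVST there were 0, then 0 to 3 with a library left out. Without CVST replicate 3 and 4-PBA replicate 3 these counts were 0 in the first comparison and 2 in the third. Members below 0 in CVST+Ligation against CVST numbered 53 to 83 with a library left out, 48 with the counts scaled to the members' sum, and 44 without both replicate 3 libraries. Members above 0 in 4-PBA against CVST+Ligation numbered 57 to 82 with a library left out and 42 when scaled to the members' sum. In 4-PBA against CVST, 48 were below 0, then 10 to 73 with a library left out (10 without CVST replicate 3 or without 4-PBA replicate 1, 73 without CVST replicate 1), 25 by limma with either pseudocount and 24 with total counts. With mitochondrially encoded genes left out of the total, the mean share of counts was 2.70% in CVST, 2.47% in CVST+Ligation and 2.84% in 4-PBA. Values near 0 changed sign. Rpl3 in CVST+Ligation against CVST was -0.00304 with the length offset and -0.0864 to 0.128 with 1 library or both replicate 3 libraries left out, and Rps23rg1 there was -0.14 to 0.86. Rpl7l1 in 4-PBA against CVST+Ligation was 0.00523 with DESeq2's size factors, 0.0059 with DESeq2's test, 0.00282 where every library needed 10 counts or more, 0.036 and 0.0355 by limma (pseudocounts 0.1 and 1), 0.00272 with only the 2 groups, 0.0267 with total counts, 0.0078 without both replicate 3 libraries, and -0.0711 to 0.109 with a library left out. The cause of these changes was not tested.

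The labels number the replicates in every group. No source says that a number marks a shared litter, batch or day, and in no comparison did every same-numbered pair have correlated deviations over 0.1 (4 of 9 pairs did, range -0.05 to 0.32), so the libraries were not treated as paired. In 6 of the 9 pairs the library correlated best with its own number, among them all 3 of 4-PBA against CVST+Ligation, which is a hint of shared numbers from the data and not from the design. With the replicate number as a block, 5 members, among them Rpl12, Rpl29, Rps12 and Rps27l, had an unadjusted p below 0.05 in CVST+Ligation against CVST and 1 in 4-PBA against CVST+Ligation, and Rpl7l1 in the latter was 0.00256.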
